A study of Mus musculus with 50 samples.

Results

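Primary p53/MCA sarcomas that received both 20 Gy radiation therapy (RT) and an antibody against PD-1 were compared with untreated primary p53/MCA sarcomas. The members were 16 bulk tumor RNA-seq libraries of the 50 in the series: the 8 labelled as primary tumors with 20 Gy and anti-PD-1 (the combination) and the 8 labelled as primary tumors with 0 Gy and isotype control antibody (untreated). They were chosen by these labels alone, and every expressed gene was compared as combination minus untreated. All 16 tumors arose in Trp53 fl/fl mice on a 129/SvJae background. An adenovirus carrying Cre recombinase was injected into the gastrocnemius muscle at 6 to 10 weeks of age to delete Trp53 there, together with 300 µg of the carcinogen 3-methylcholanthrene (MCA). Both groups therefore carried the same deletion, the same carcinogen and an injected antibody, and only the combination group was irradiated. Antibody was given at 200 µg per dose, the irradiated hind limb received its 20 Gy, and tumors were harvested 3 days later. The remaining primary groups received 20 Gy with isotype control (radiation alone) or 0 Gy with anti-PD-1, 8 tumors each, and transplant tumors grown from a cell line were sequenced under the same 4 treatments.

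Ionizing radiation breaks DNA, and cells respond through p53, which induces the cell cycle inhibitor Cdkn1a, and through arrest before mitosis. Damaged DNA and RNA in the cytoplasm can be detected by sensors that induce type I interferons, which act through a transcription factor complex on interferon-stimulated response elements in target promoters. PD-1 is an inhibitory receptor on T cells, and its ligand PD-L1, encoded by Cd274, is induced by interferon-γ. Which cells of these tumors carried the Trp53 deletion was not measured.

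Total counts were 37743696 to 49181237 in the untreated libraries and 34742377 to 51436481 in the combination libraries, and 13612 to 14022 and 13647 to 14401 genes reached 1 CPM (the standard count unit relative to the scaled library total). Xist exceeded the Y-linked genes in 5 of 8 untreated and 3 of 8 combination tumors, so both sexes were present in each group. Among the combination libraries, only replicate 5 had its p53 target, interferon, mitotic and cholesterol gene lists all inside the untreated range. Of the 8 combination libraries, 7 lay above all untreated ones for p53 targets and interferon-γ genes, but only 4 for type I interferon genes. For cholesterol genes 7 lay below all untreated ones, and for mitotic genes 6. Combination replicate 4 held the most skeletal muscle RNA, with a mean of 12.1 on the log2 CPM scale over 12 muscle fiber genes against an untreated maximum of 8.51. Untreated replicate 4 had the highest type I interferon list of its group, at 7.24 against a group median of 5.35. The distance of a library to the mean of its group was taken over log2 CPM of all tested genes. It averaged 117.1 ± 29.87 (SD, n = 8) in the combination group and 98.36 ± 10.14 (SD, n = 8) in the untreated group. This difference in spread did not pass an exact two-sided permutation test over the 16 libraries (p = 0.1206). Farthest from the combination mean were replicates 4 (172.2), 5 (142.8) and 1 (135.9).

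Of 19327 genes tested, 2197 were higher (11.4%) and 1438 were lower (7.44%) in combination-treated than in untreated tumors, at an adjusted p under 0.05 in edgeR's quasi-likelihood test. A change of at least 2-fold was seen in 1585 of the higher genes but only 329 of the lower ones. The median log2 fold change over all tested genes was -0.01. Without combination replicate 5, 2605 genes were higher (13.5%) and 1589 were lower (8.22%), and 3382 genes were called in the same direction with and without it. Without combination replicate 4 the count of lower genes was 861. In 67 genes (0.347%) all 8 combination libraries lay above all 8 untreated libraries, and in 41 genes (0.212%) all 8 lay below. The treatment label accounted for 10.1% of the variance of the 500 most variable genes, which did not pass an exact one-sided permutation test (p = 0.1667), and for 14.9% of that of all tested genes, which did (p = 0.006371).

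**Figure D1:**
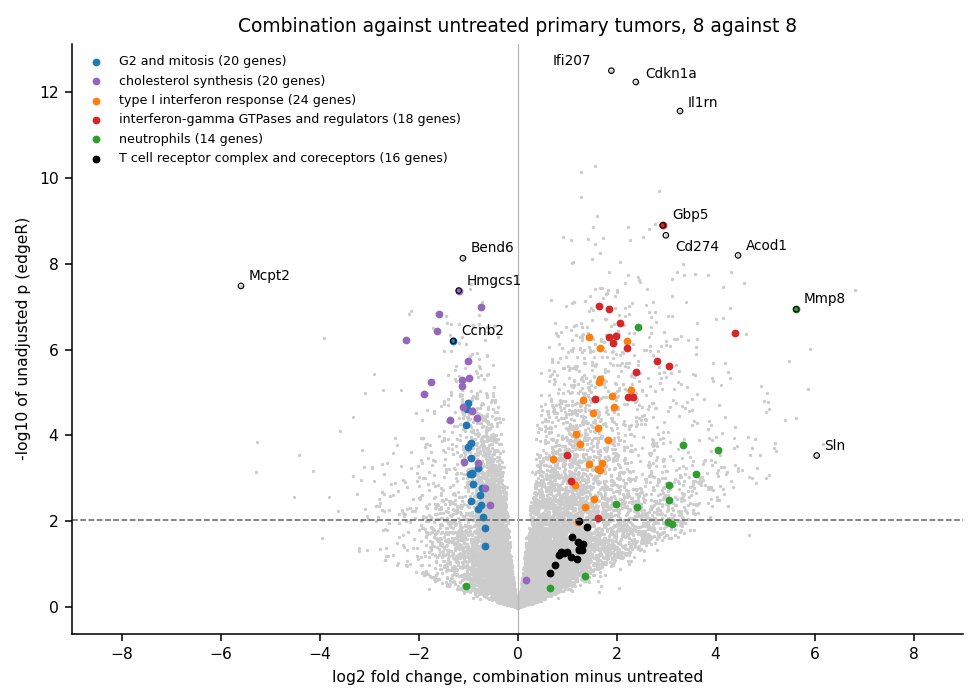
Each point is 1 of 19327 tested genes, with the log2 fold change (combination minus untreated) on the x axis and the -log10 unadjusted p on the y axis; colors mark 6 gene lists and the dashed line is the largest p with an adjusted p under 0.05. Interferon genes lie to the right, mitotic and cholesterol genes to the left, and the 16 T cell receptor genes fall under the line.

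Promoter sequences are shown for interferon-induced genes that rose and for a mitotic cyclin that fell, since both groups share short motifs. The windows are the 200 bases before the RefSeq transcription start (build GRCm38.p6), written 5′ to 3′ on the gene's strand. Capitals mark the interferon-stimulated response element core, GAAA and again GAAA with any 2 bases between, or its reverse complement in the first 4 windows, and CCAAT in the last. The windows lie at chr19:34640689-34640888 (+) for Ifit1, chr12:26456453-26456652 (-) for Rsad2, chr3:142496734-142496933 (+) for Gbp5, chr3:142559844-142560043 (+) for Gbp3 and chr9:70421555-70421754 (-) for Ccnb2. Ifit1 held 2 matches, Rsad2 and Gbp5 held 1 each, Gbp3 held 2 that overlap, and Ccnb2 held 3 copies of CCAAT.
Ifit1: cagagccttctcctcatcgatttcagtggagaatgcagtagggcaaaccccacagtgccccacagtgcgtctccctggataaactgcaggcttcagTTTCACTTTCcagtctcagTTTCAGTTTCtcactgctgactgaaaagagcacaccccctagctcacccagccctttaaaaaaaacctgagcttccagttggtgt
Rsad2: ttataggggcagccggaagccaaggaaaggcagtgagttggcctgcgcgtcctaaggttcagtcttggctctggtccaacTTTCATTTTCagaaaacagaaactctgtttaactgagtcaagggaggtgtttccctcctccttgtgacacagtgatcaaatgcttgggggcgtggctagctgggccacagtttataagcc
Gbp5: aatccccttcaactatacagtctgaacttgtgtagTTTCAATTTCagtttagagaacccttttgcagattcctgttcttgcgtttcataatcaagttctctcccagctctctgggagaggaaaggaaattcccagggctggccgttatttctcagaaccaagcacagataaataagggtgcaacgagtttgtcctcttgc
Gbp3: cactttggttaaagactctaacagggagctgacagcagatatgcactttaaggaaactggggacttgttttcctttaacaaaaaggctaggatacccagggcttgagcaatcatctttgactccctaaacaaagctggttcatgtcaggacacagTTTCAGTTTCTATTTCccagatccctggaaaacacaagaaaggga
Ccnb2: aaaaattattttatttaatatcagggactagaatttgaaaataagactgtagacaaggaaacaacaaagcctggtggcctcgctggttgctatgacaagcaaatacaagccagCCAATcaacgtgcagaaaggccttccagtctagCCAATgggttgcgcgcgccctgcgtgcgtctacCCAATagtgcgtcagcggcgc
Over 250 bases before the start and on both strands, the response element core occurred in 438 of 13118 tested genes with a window (3.34%). It occurred in 9 of 18 type I interferon response genes (50%) and in 10 of 12 interferon-γ GTPases and regulators (83.3%), against 1 of 16 G2 and mitosis genes (6.25%). Other lists with higher genes held it less often, in 3 of 16 MHC class I presentation genes (18.8%) and 1 of 14 checkpoint receptors and ligands (7.14%). CCAAT occurred in 14 of 16 G2 and mitosis genes (87.5%), 7 of 18 type I interferon genes (38.9%) and 5158 of 13118 tested genes (39.3%). The cell cycle element TTTGAA was found in 5 of 16 G2 and mitosis genes (31.2%) and 13.6% of all windows. A match describes the letters present and is not evidence of binding.

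Genes that p53 induces were higher in the combination group, although Cre had been delivered to delete Trp53. Of 22 measured p53 targets 12 rose and none fell, with a median log2 fold change of 0.44, and 13 rose without combination replicate 5 but 8 without combination replicate 4. Because these were bulk samples, fewer cells of a type and less RNA per cell cannot be told apart for this or any later group. Trp53 itself (chr11:69580359-69591873) ranged from 20.1 to 28.02 CPM with a median of 25.04 in untreated tumors and from 21.4 to 51.9 with a median of 31.5 in combination tumors. Its difference of 0.40 ± 0.18 (SE) in log2 did not pass the test (adjusted p = 0.104). Since the deletion was shared by both groups, this comparison does not check it.

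Cdkn1a, the p21 inhibitor of cyclin-dependent kinases (chr17:29090976-29100727, GRCm38), gave the clearest change of this list. Untreated tumors held 27.96 to 85.56 CPM with a median of 44.6, and combination tumors held 78.8 to 469 CPM with a median of 228. Every combination tumor but replicate 5 lay above all untreated tumors. The log2 fold change was 2.39 ± 0.24 (SE; adjusted p = 5.62e-09) and 2.56 without replicate 5. Trp53inp1, which promotes p53-dependent cell death, rose by 1.36 ± 0.29 in log2, and the death receptor Fas rose by 1.19 ± 0.28. Mdm2, the ubiquitin ligase that degrades p53, rose by 0.44 ± 0.11. Ccng1 rose by 1.29 ± 0.35 in log2, but by 0.78 without combination replicate 4, where the call was lost (adjusted p = 0.0792). Bbc3 at 0.41 ± 0.18 and Zmat3 at 0.27 ± 0.18 did not pass.

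Cell division genes were lower. Of 20 G2 and mitosis genes, 18 fell and none rose (median -0.92), against a background of 7.44% of genes lower, and the count was 13 without combination replicate 4. Ccnb2, the mitotic B-type cyclin whose promoter is shown above, ranged from 39.0 to 98.5 CPM (median 69.2) in untreated and from 11.9 to 48.8 CPM (median 22.99) in combination tumors. Combination replicates 1 and 5 overlapped the untreated range and the other 6 lay below it. The log2 fold change of Ccnb2 was -1.30 ± 0.22 (SE; adjusted p = 7.1e-05). Birc5, a subunit of the chromosomal passenger complex, fell by 1.01 ± 0.21 in log2, the mitotic kinase gene Plk1 fell by 0.97 ± 0.27, and Mki67, the proliferation marker Ki-67, fell by 0.92 ± 0.25. Cdk1 had a log2 difference of -0.66 ± 0.26 and missed the threshold (adjusted p = 0.067).

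Of 20 S phase genes 7 fell (median -0.59), and this count was 11 without combination replicate 1 and 12 without replicate 5. Rrm1, a subunit of ribonucleotide reductase, fell by 0.85 ± 0.18 in log2, and the thymidine kinase gene Tk1 fell by 1.16 ± 0.26. Pcna, the DNA polymerase clamp, did not pass, at -0.27 ± 0.20. Of 20 double-strand break repair genes 5 fell (median -0.42), with 3 lower without combination replicate 4 and 10 without replicate 5. They included the Ku80 gene Xrcc5, which fell by 0.70 ± 0.17.

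Cholesterol synthesis genes were lower throughout the pathway. Of 20 genes 19 fell (median -1.10), with the same count of 19 without combination replicate 5 and 18 without replicate 4. Hmgcs1, which makes the substrate of HMG-CoA reductase, ranged from 55.5 to 169 CPM (median 105.97) in untreated tumors and from 37.1 to 66.6 CPM (median 42.4) in combination tumors. Only combination replicate 5 overlapped the untreated tumors. The log2 fold change of Hmgcs1 was -1.19 ± 0.18 (SE; adjusted p = 1.48e-05). The lanosterol demethylase gene Cyp51 fell by 1.59 ± 0.25 in log2, and Srebf2, the transcription factor that drives these genes, fell by 0.92 ± 0.20. Ebp, at 0.17 ± 0.14, was the exception.

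**Figure D2:**
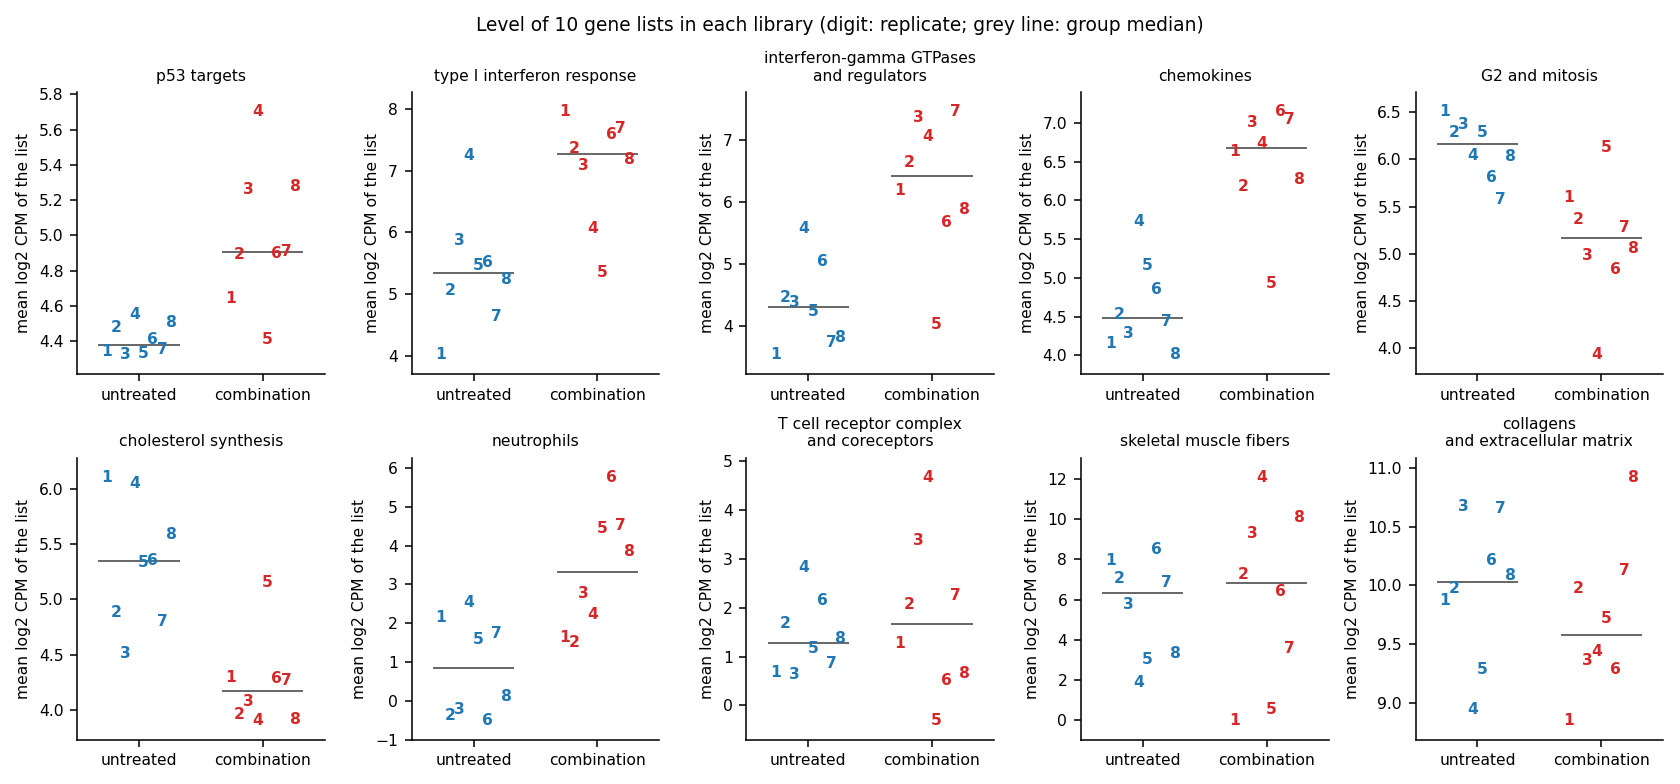
Each panel gives the mean log2 CPM of 1 gene list (y axis) in the 8 untreated and 8 combination libraries (x axis), with the digit naming the replicate and the grey line the group median. Combination replicate 5 sits with the untreated tumors for cholesterol synthesis (5.16) and type I interferon (5.35), and replicate 4 is highest for muscle (12.1).

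Interferon-stimulated genes rose in nearly all members of both lists. Of 24 type I interferon response genes 23 rose (median 1.63), and all 24 were called without combination replicate 5. The type I median was 2.11 without untreated replicate 4, with 24 genes called. Of 18 interferon-γ-induced GTPases and regulators all 18 rose (median 2.03), with or without combination replicate 5, and 17 rose without untreated replicate 4 (median 2.33). Rsad2, the antiviral enzyme viperin, ranged from 8.63 to 73.1 CPM (median 22.4) in untreated and from 18.3 to 268 CPM (median 147) in combination tumors. The ranges overlapped, with 5 combination tumors above all untreated ones. Its log2 fold change was 2.28 ± 0.45 (SE; adjusted p = 0.000435). Ifit1, which binds viral RNA, rose by 1.63 ± 0.44 and Irf7, a transcription factor of the interferon response, by 1.90 ± 0.38. Mx2 missed the threshold, at 1.22 ± 0.46 (adjusted p = 0.0537).

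Gbp5, a guanylate-binding GTPase of cell-autonomous defense, rose with little overlap between the groups. Untreated tumors held 7.67 to 29.7 CPM (median 14.4) and combination tumors held 16.99 to 287 CPM (median 108.3), with every replicate but 5 above the untreated maximum. The log2 fold change of Gbp5 was 2.93 ± 0.38 (SE; adjusted p = 2.28e-06) and 3.13 without replicate 5. Irf1, the transcription factor that relays interferon-γ, rose by 1.64 ± 0.26, and Ido1, which degrades tryptophan, rose by 4.38 ± 0.73 from a low level. Tgtp1 rose by 3.05 ± 0.56. Tgtp1 has a near-identical copy, Tgtp2, so the counts of the pair may be split unevenly.

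Genes of nucleic acid sensing were partly higher. Of 17 measured nucleic acid sensing genes 13 rose (median 1.16), and 15 rose without combination replicate 5. Ifi207, a member of the interferon-inducible PYHIN family (chr1:173723427-173741747), ranged from 24.01 to 34.78 CPM (median 30.9) in untreated and from 59.6 to 161 CPM (median 107.96) in combination tumors. All 8 combination tumors, replicate 5 included, lay above all untreated tumors, and the log2 fold change was 1.89 ± 0.18 (SE; adjusted p = 5.62e-09). The family has close paralogs whose reads may be shared. Zbp1, a sensor of left-handed nucleic acid, rose by 2.02 ± 0.34 and Samhd1, a dNTP hydrolase, by 1.52 ± 0.24.

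Among 9 measured interferon ligands, receptors and kinases 6 rose. Ifng, the interferon-γ gene, rose by 2.65 ± 0.74 in log2 but stayed at 0.0391 to 2.83 CPM in combination tumors, and Ifnb1 had a log2 difference of 1.32 ± 0.67 that did not pass (adjusted p = 0.166). Jak1, the kinase shared by both interferon receptors, ranged from 193 to 235 CPM in untreated and from 247 to 318 CPM in combination tumors. The Jak1 ranges did not overlap, although the difference was only 0.38 ± 0.10 (adjusted p = 0.00546).

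Antigen presentation by MHC class I was higher in most members. Of 18 genes 14 rose (median 1.01), and 16 rose without combination replicate 5. Without untreated replicate 4 all 18 rose (median 1.41), and without combination replicate 4 the count was 12. The lowest count on leaving out 1 library was 10, without untreated replicate 7. Tap1, a subunit of the peptide transporter, rose by 1.46 ± 0.30 in log2, the peptide editor gene Tapbp by 1.20 ± 0.22 and the heavy chain gene H2-K1 by 1.09 ± 0.33. B2m, the shared light chain, did not pass, at 0.62 ± 0.26 (adjusted p = 0.0875). Class I heavy chains resemble each other closely, so reads may be assigned to the wrong member. Of 10 class II genes 4 rose (median 1.12), and 2 rose without untreated replicate 8 or without combination replicate 3. The class II median was 0.44 without combination replicate 4, the library with the highest class II level. Ctss, a lysosomal protease that trims the invariant chain, rose by 1.35 ± 0.28, whereas Cd74, the invariant chain itself, did not pass at 1.14 ± 0.51.

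PD-L1 transcripts rose in treated tumors, while those of its receptor did not pass the test. Cd274, the PD-L1 gene (chr19:29367455-29388095), ranged from 3.18 to 20.5 CPM (median 5.67) in untreated and from 11.3 to 107.02 CPM (median 53.7) in combination tumors. Only replicate 5 overlapped the untreated range. Cd274 rose by 2.99 ± 0.40 in log2 (SE; adjusted p = 2.77e-06). Pdcd1, the PD-1 gene, ranged from 0.616 to 5.32 CPM in untreated and from 0.411 to 24.5 CPM in combination tumors, and its log2 difference of 1.20 ± 0.57 did not pass (adjusted p = 0.133). The ranges of Pdcd1 overlapped, with the highest value in combination replicate 4.

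Of 20 checkpoint receptors and ligands 9 rose and none fell (median 1.12), and 14 rose without combination replicate 1 or without replicate 5. The count was 7 without combination replicate 4 and 13 without untreated replicate 4. Cd80, a ligand of CD28 and CTLA-4, rose by 2.23 ± 0.32 in log2, and Lag3, an inhibitory receptor, rose by 1.89 ± 0.32. Ctla4 and Icos rose by 1.71 ± 0.54 and 1.90 ± 0.54, but lost their calls without combination replicate 4, at 1.03 (adjusted p = 0.18) and 1.0 (adjusted p = 0.168).

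T cell receptor genes did not pass the threshold. Of 16 T cell receptor complex and coreceptor genes 0 were called by edgeR or by limma voom and 3 were higher by DESeq2, while 8 had an unadjusted p under 0.05. The list's median log2 fold change was 1.16, and 0.33 without combination replicate 4. The count of called genes was 5 without combination replicate 5 and 4 without untreated replicate 4. Cd8a, a coreceptor of cytotoxic T cells, ranged from 1.20 to 11.0 CPM (median 2.77) in untreated and from 0.606 to 40.3 CPM (median 4.77) in combination tumors. The groups overlapped widely for Cd8a, with replicate 4 highest and replicate 5 lowest of the combination tumors, and the difference was 1.24 ± 0.60 (adjusted p = 0.145).

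Of 16 cytotoxic and NK cell genes 3 rose (median 0.95), a share not far from the 11.4% of all tested genes higher. This count was 10 without untreated replicate 4 (median 1.56), 7 without combination replicate 5 and 5 without combination replicate 1. Ccl5, a chemokine made by activated T and NK cells, rose by 2.65 ± 0.45 in log2, and the granzyme gene Gzmb rose by 1.60 ± 0.54 (adjusted p = 0.034). The paper also counts Ccl5 among type I interferon response genes raised by anti-PD-1 in myeloid cells, so its rise does not single out T or NK cells. The difference in Gzmb was 2.89 without untreated replicate 4, and its call was lost without any 1 of untreated replicates 1, 2, 3, 6, 7 and 8 or combination replicates 3 and 7, at 1.41 to 1.52 (adjusted p = 0.0537 to 0.0761). Prf1, the pore-forming perforin, did not pass at 1.39 ± 0.56. Of 8 regulatory T cell genes 4 rose, among them Il2ra at 2.01 ± 0.41, while the defining factor Foxp3 did not pass at 1.37 ± 0.56. Of 9 B and plasma cell genes 0 passed in edgeR, with 3 at an unadjusted p under 0.05 and 2 higher by DESeq2. Their median was 0.67, and it was 0.24 without combination replicate 4 and 0.34 without replicate 3.

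Of 18 macrophage and monocyte genes 11 rose (median 0.87), and 16 rose without combination replicate 5. Fcgr4, an activating Fc receptor, rose by 2.78 ± 0.44 in log2, and Ly6c2, a marker of inflammatory monocytes, rose by 2.29 ± 0.53. The macrophage marker Adgre1 (F4/80) did not pass, at 0.74 ± 0.31 (adjusted p = 0.0858). Of 20 polarization genes 12 rose and 1 fell (median 1.81), and they came from both ends of the inflammatory range. Acod1, which makes itaconate, rose by 4.45 ± 0.62 with all 8 combination tumors above all untreated ones, and Arg1, an arginase of alternatively activated macrophages, rose by 3.52 ± 0.72. Il6 rose by 3.33 ± 0.70 and Nos2 by 1.83 ± 0.47. Of 14 dendritic cell genes 4 rose and 1 fell (median 0.22), with 2 higher without combination replicate 3. Over all tested genes 11.4% were higher and 7.44% lower, so the 1 fall here, like that among polarization genes, is no result about its list. The dendritic median changed sign without combination replicate 4, to -0.17, and in limma voom, to -0.35.

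Neutrophil genes showed the largest list median of the leukocyte lists, 3.05, with 9 of 14 genes higher. Without combination replicate 6 the count was 6 and the median 2.18, and without combination replicate 1 the count was 11. Mmp8, the neutrophil collagenase, ranged from 0.113 to 1.23 CPM (median 0.454) in untreated tumors and from 0.848 to 134.3 CPM (median 10.4) in combination tumors. Every combination tumor but replicate 1 lay above all untreated tumors. Mmp8 rose by 5.63 ± 0.89 in log2 (SE; adjusted p = 2.67e-05). Csf3r, the G-CSF receptor, rose by 2.44 ± 0.40 and Cxcr2, the receptor for neutrophil chemokines, by 3.61 ± 1.0. S100a8, a calprotectin subunit, missed the threshold at 3.04 ± 1.13 (adjusted p = 0.0536). The list of neutrophils markers was high in combination replicates 5 to 8, with levels of 3.84 to 5.77 in mean log2 CPM, against 1.49 to 2.78 in replicates 1 to 4 and a maximum of 2.53 in untreated tumors. Replicate 5 was thus among the higher libraries for neutrophil genes while its interferon lists stayed in the untreated range.

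Chemokines and complement rose in nearly all members. Of 17 chemokines 14 rose (median 2.13), and of 12 complement genes 10 rose (median 1.33), with unchanged counts without combination replicate 5. Cxcl9, which attracts CXCR3-bearing T cells, ranged from 15.7 to 132.3 CPM (median 34.5) in untreated and from 24.4 to 1353 CPM (median 419) in combination tumors. Combination replicate 5 was lowest, 6 combination tumors exceeded all untreated ones, and the log2 fold change was 3.10 ± 0.58 (adjusted p = 0.000234). Ccl6 rose by 3.58 ± 0.52 and the monocyte attractant Ccl2 by 1.94 ± 0.41. Cxcl12, which retains CXCR4-bearing cells, did not pass at -0.36 ± 0.28. C3, the central complement component, rose by 3.23 ± 0.55, Cfb by 2.66 ± 0.42 and the inhibitor Serping1 by 2.08 ± 0.39.

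Among genes averaging at least 2 on the log2 CPM scale, Mcpt2, a mast cell protease gene (chr14:56042041-56044642), had the largest fall. Untreated tumors held 1.95 to 52.9 CPM (median 4.58) and combination tumors held 0.0196 to 1.08 CPM (median 0.175), so the groups did not overlap. Mcpt2 had a log2 fold change of -5.59 ± 0.83 (SE; adjusted p = 1.41e-05). Mast cell proteases are a family of similar genes, so reads may be shared. Fcrls, a gene of resident macrophages and microglia, fell by 2.15 ± 0.54 and lay at 0.645 CPM in combination replicate 5. Fcrls fell by 1.93 without that library. Cdh26, a cadherin gene, fell by 3.90 ± 0.66. The calls of several other large falls depended on 1 untreated tumor each. C1qtnf3 at -2.31 ± 0.66 and Prss35 at -2.28 ± 0.66 lost their calls without untreated replicate 3, at -1.71 (adjusted p = 0.0606) and -1.52 (adjusted p = 0.0883). Rpl39l at -3.82 ± 1.20 lost its call without untreated replicate 8, at -1.82 (adjusted p = 0.24).

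Il1rn, the antagonist of the interleukin-1 receptor, was the next most significant gene after Ifi207 and Cdkn1a. It ranged from 4.60 to 17.5 CPM (median 7.06) in untreated tumors and from 41.0 to 154 CPM (median 76.7) in combination tumors. The groups did not overlap, replicate 5 included, and the log2 fold change was 3.28 ± 0.34 (SE; adjusted p = 1.78e-08). Il18bp, the decoy receptor of interleukin-18, rose by 2.86 ± 0.35, but its ranges overlapped. Combination replicate 5 held 12.38 CPM of Il18bp and untreated replicate 4 held 16.79 CPM. Other genes without overlap included Tnfaip3, the NF-κB inhibitor A20 (1.60 ± 0.20), Cd300lf, an inhibitory myeloid receptor (2.78 ± 0.36), F10, coagulation factor X (4.31 ± 0.62), Grina (1.29 ± 0.15) and Mocos (1.56 ± 0.18). Among genes with the combination tumors all lower were Bend6 (-1.11 ± 0.15), the sulfhydryl oxidase Qsox1 (-0.96 ± 0.14), Tmem241 (-0.73 ± 0.11), Agbl2 (-2.20 ± 0.35) and the S phase and mitotic cyclin Ccna2 (-1.04 ± 0.23).

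Of 18 cell death genes 11 rose and 1 fell (median 0.65, and 0.99 without untreated replicate 4). Gsdmd, which forms the pore of pyroptosis, ranged from 28.6 to 46.1 CPM (median 33.0) in untreated and from 46.2 to 132.9 CPM (median 82.3) in combination tumors. The Gsdmd ranges touched without overlapping, with replicate 5 nearest to the untreated tumors, and the log2 fold change was 1.29 ± 0.16 (adjusted p = 7.78e-07). Nlrp3 and Casp1, inflammasome components, rose by 1.30 ± 0.25 and 1.44 ± 0.30, while the necroptosis effector Mlkl did not pass at 0.50 ± 0.22. Of 17 senescence genes 8 rose and 1 fell (median 1.46). Over all tested genes 11.4% were higher and 7.44% lower. The 1 fall, here as among the cell death genes, is therefore no result about its list. Csf2 (GM-CSF) rose by 4.15 ± 0.67, Lif by 2.52 ± 0.50 and Il1a by 3.37 ± 0.71, while the nuclear lamina gene Lmnb1 fell by 0.66 ± 0.20 and lost its call without untreated replicate 3 (adjusted p = 0.0539). Of 16 immediate early genes 7 rose (median 0.60), including Atf3 (1.50 ± 0.34) and the mRNA decay factor gene Zfp36 (1.11 ± 0.16). Of 16 heat shock and unfolded protein response genes 0 passed in edgeR, DESeq2 or limma voom, with 1 at an unadjusted p under 0.05 and a median of -0.07.

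**Figure D3:**
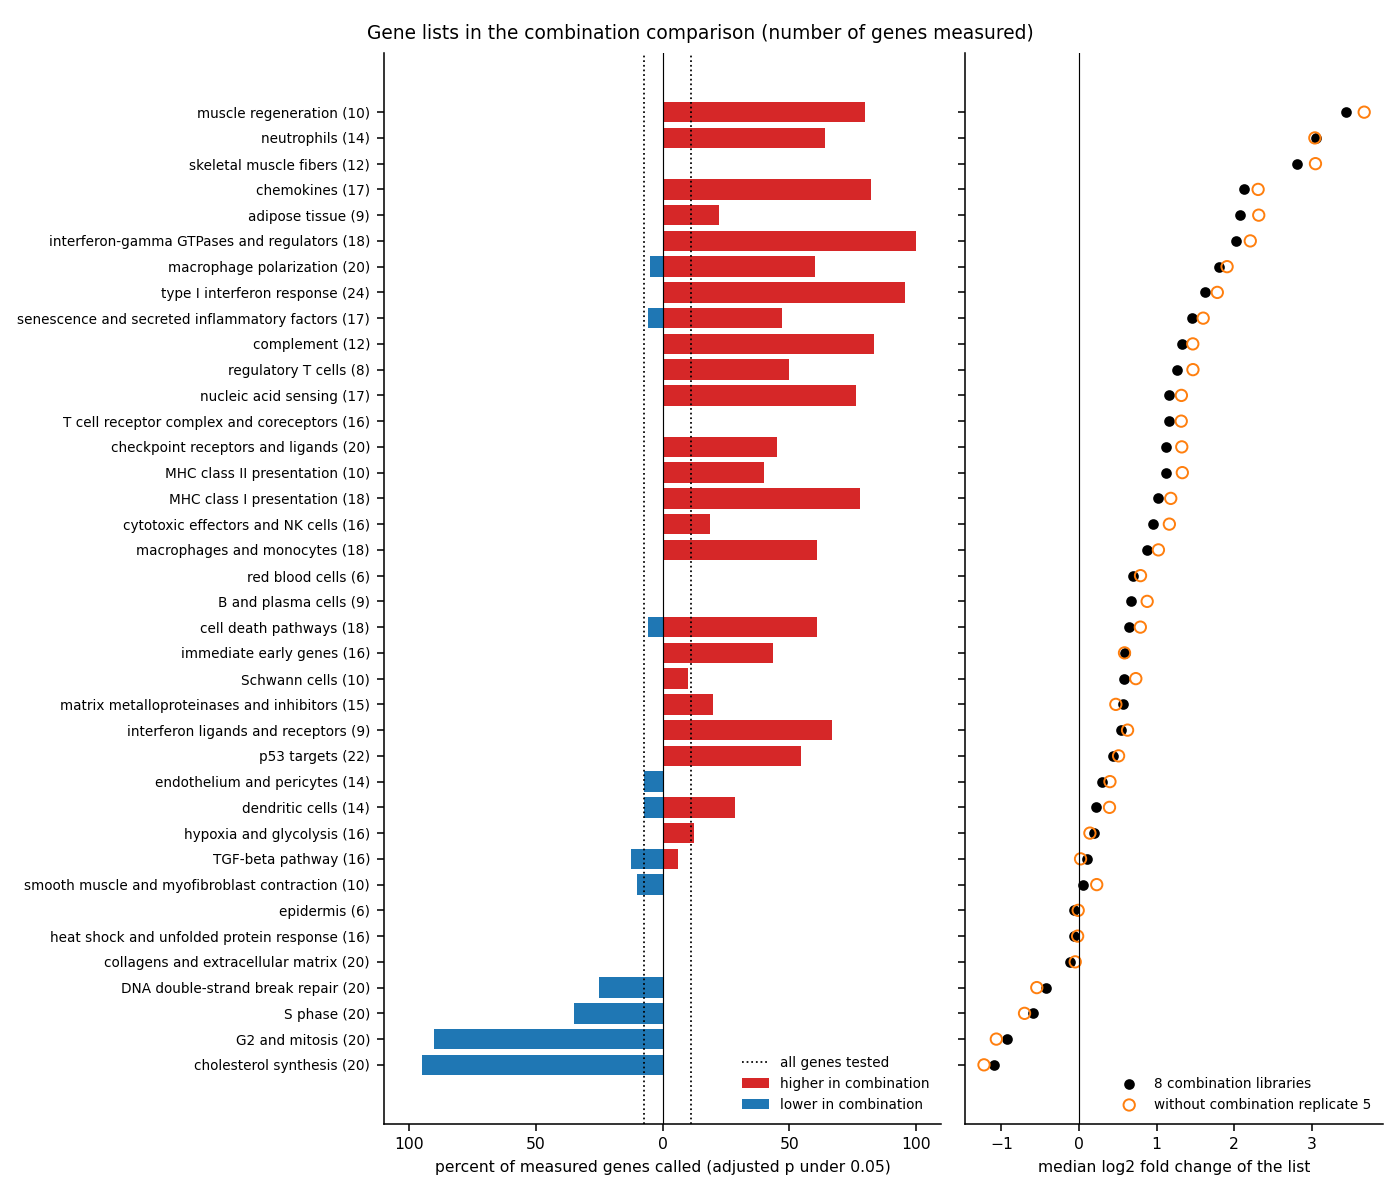
The left panel gives, for each of 38 gene lists (y axis, number measured), the percent of genes called higher (red) or lower (blue), with dotted lines at 11.4% and 7.44% for all tested genes. The right panel gives the median log2 fold change with all 8 combination libraries (black) and without replicate 5 (orange), from -1.10 for cholesterol synthesis to 3.45 for muscle regeneration.

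Stromal lists are read against 11.4% of all tested genes higher and 7.44% lower. Of 20 collagen and extracellular matrix genes 0 passed in edgeR or DESeq2 and 1 was lower by limma voom, with 3 at an unadjusted p under 0.05 and a median of -0.12. The collagen median was -0.48 without combination replicate 8, -0.23 without untreated replicate 4 and -0.0071 without untreated replicate 3. Col5a1 had a log2 difference of -0.69 ± 0.33 and Dcn one of 0.65 ± 0.32. Of 16 TGF-β pathway genes 1 rose and 2 fell, or 0 and 1 without combination replicate 4. The ligand gene Tgfb3 fell by 1.41 ± 0.35. Of 15 matrix metalloproteinase and inhibitor genes 3 rose, among them Mmp19 (1.17 ± 0.31), while Mmp9 did not pass at 0.64 ± 0.69. Of 10 smooth muscle and myofibroblast genes 1 fell, the actin gene Acta2, by 1.71 ± 0.50. Of 14 endothelial and pericyte genes 0 rose and 1 fell, or 0 and 0 without combination replicate 4. Counts of 1 or 2 in lists of this size are near the shares over all genes, and nothing is read from them about stroma. Lrrc15, expressed by cancer-associated fibroblasts, fell by 2.15 ± 0.58, and Cilp, a matrix protein gene, fell by 2.02 ± 0.58.

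Several of the largest fold changes were in muscle genes. Of 12 skeletal muscle fiber genes 0 passed in edgeR and 10 were higher by DESeq2, with 10 at an unadjusted p under 0.05. Their median log2 fold change was 2.81, and 1.36 without combination replicate 4. The level of the fiber list ranged from 1.85 to 8.51 in untreated and from -0.0046 to 12.1 in combination tumors in mean log2 CPM. Of 10 muscle regeneration genes 8 rose (median 3.45), but 2 rose without combination replicate 3 (median 2.28), and 0 were called by limma voom. Myh3, the embryonic myosin, reached 118.8 CPM in combination replicate 3 and had a combination median of 1.12 CPM. Its log2 fold change of 4.39 ± 1.17 was 2.16 without that library (adjusted p = 0.136). Sln, a muscle calcium pump regulator, had the largest fold change of all named genes, 6.04 ± 1.53, and this was 3.52 without combination replicate 4 (adjusted p = 0.064). The cardiac actin gene Actc1, also made in regenerating muscle, had a log2 fold change of 5.08 ± 1.42, which was 2.74 without replicate 4 (adjusted p = 0.136). For Lrtm1 the values were 4.89 ± 1.24 and 2.71 (adjusted p = 0.0838). Apol7c, named for its large rise and not as a muscle gene, had 5.03 ± 1.07, and 1.89 without replicate 4 (adjusted p = 0.103).

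Adipose and Schwann cell counts are read against 11.4% of all tested genes higher. Of 9 adipose genes 2 rose, and 0 rose without combination replicate 4, with a median of 2.08 and 1.29. Of 10 Schwann cell genes 1 rose, near the share of all genes. Their median of 0.58 was -0.55 without combination replicate 4 and 1.04 without untreated replicate 8. Of 6 red blood cell genes 0 passed in edgeR, DESeq2 or limma voom and 0 had an unadjusted p under 0.05. Of 6 epidermis genes 0 passed in edgeR or limma voom and 1 was higher by DESeq2, with 1 at an unadjusted p under 0.05. The part of these admixed tissues in the other results was not tested. Of 16 hypoxia and glycolysis genes 2 rose, a share near the 11.4% of all genes, so the count is no result about the list. Hk2, a hexokinase, rose by 1.38 ± 0.29, and Car9, a carbonic anhydrase induced by low oxygen, rose by 1.90 ± 0.60. Combination replicate 5 held 70.4 CPM of Car9, and without it the difference was 0.23 (adjusted p = 0.747).

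The values for radiation alone share the untreated tumors with those of the combination and are given beside them for that reason only. With radiation alone 1776 genes were higher (9.19%) and 1758 were lower (9.1%). Of the type I interferon list 24 of 24 rose (median 2.02), of the G2 and mitosis list 17 of 20 fell (median -0.81), and of the cholesterol list 19 of 20 fell (median -1.15). Cdkn1a rose by 2.21 ± 0.23 with radiation alone and by 2.39 ± 0.24 with the combination, and Cd274 by 2.88 ± 0.40 and 2.99 ± 0.40. The neutrophil list had 4 of 14 genes higher and 1 lower with radiation alone (median 1.90). The T cell receptor list had 1 of 16 genes higher (median 0.79), and the muscle regeneration list had 0 of 10 (median 1.29).

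Tested directly, the addition of anti-PD-1 to 20 Gy changed 0 genes at an adjusted p under 0.05 in edgeR. The smallest adjusted p was 0.131, 1955 genes had an unadjusted p under 0.05, and DESeq2 called 36 higher and 9 lower while limma voom called 0. The log2 difference between combination and radiation alone was 0.18 ± 0.22 for Cdkn1a, 0.11 ± 0.37 for Cd274, -0.43 ± 0.43 for Ifit1 and 0.81 ± 0.60 for Cd8a. For Mmp8 it was 2.29 ± 0.75, with an adjusted p of 0.313. A departure from additivity of the 2 treatments passed in 0 genes in edgeR, with 1168 at an unadjusted p under 0.05 and 9 called by DESeq2. Anti-PD-1 alone changed 0 genes (707 at an unadjusted p under 0.05), with list medians of -0.12 for type I interferon genes, 0.72 for interferon-γ genes and 1.06 for the T cell receptor list.

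**Figure D4:**
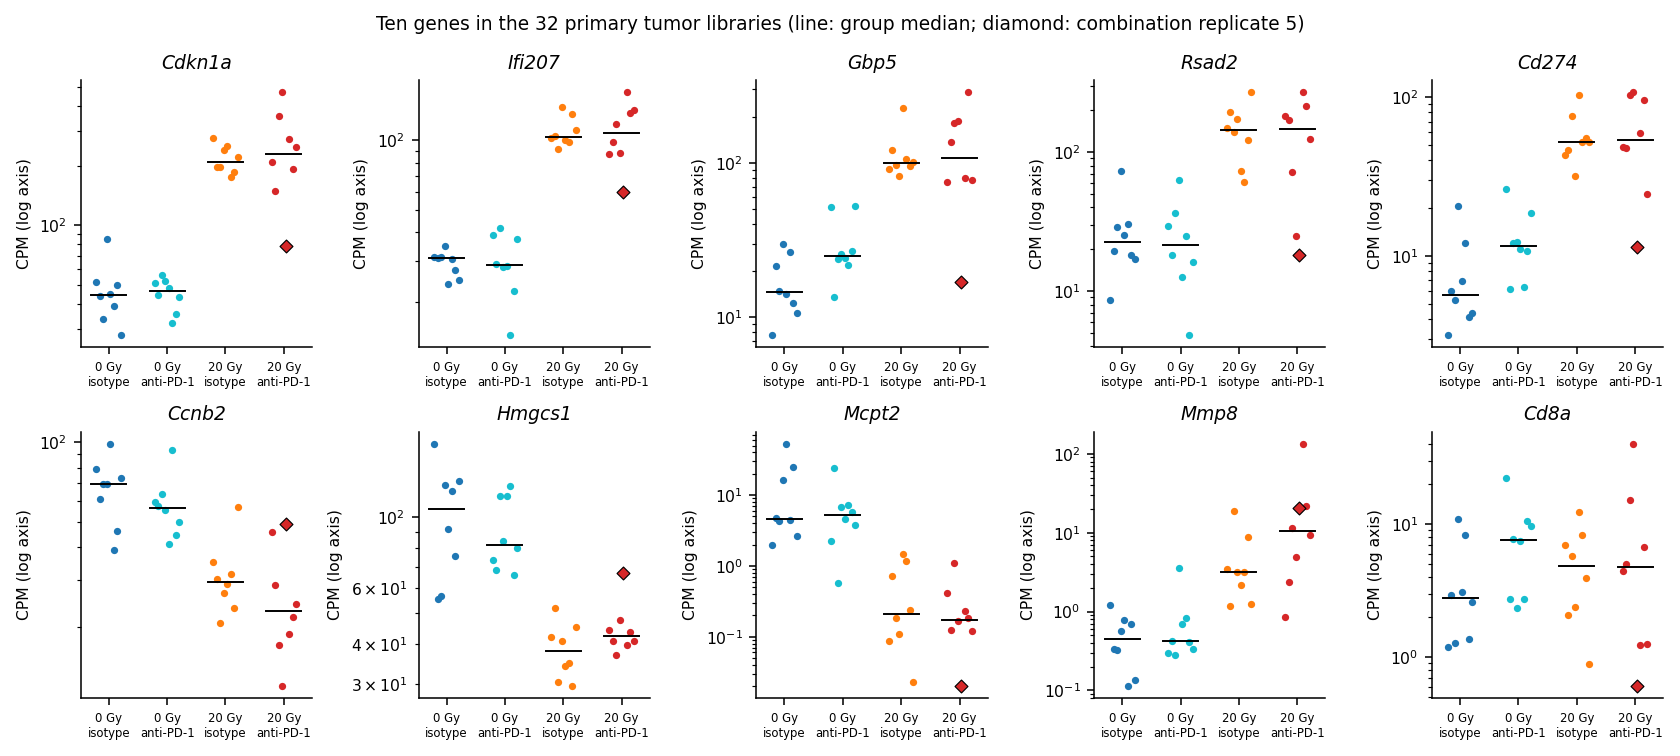
Each panel gives the CPM (log y axis) of 1 gene in the 8 libraries of each of the 4 primary groups (x axis), with a line at the group median and a diamond for combination replicate 5. Cdkn1a, Ifi207, Gbp5 and Cd274 are high in both groups given 20 Gy (Cdkn1a combination median 228 CPM), while Cd8a overlaps in all groups.

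The same treatment in transplant tumors raised 798 and lowered 54 of the 19327 tested genes, with 4 tumors per group. Tested as a difference of differences, 0 genes passed between primary and transplant tumors in edgeR (1237 at an unadjusted p under 0.05, smallest adjusted p 0.251), and DESeq2 called 4. The median of the type I interferon list was 1.63 in primary and 2.40 in transplant tumors, and that of the neutrophil list was 3.05 and 0.41. For G2 and mitosis it was -0.92 and -0.77, and for cholesterol synthesis -1.10 and -0.86. In transplant tumors 0 of 20 and 9 of 20 genes of these 2 lists were called lower. Arg1 differed by 4.83 ± 1.21 between models, as 3.52 against -1.31, and was 1 of the 4 genes called by DESeq2 (4.87, adjusted p = 0.023) but did not pass in edgeR (adjusted p = 0.385).

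**Figure D5:**
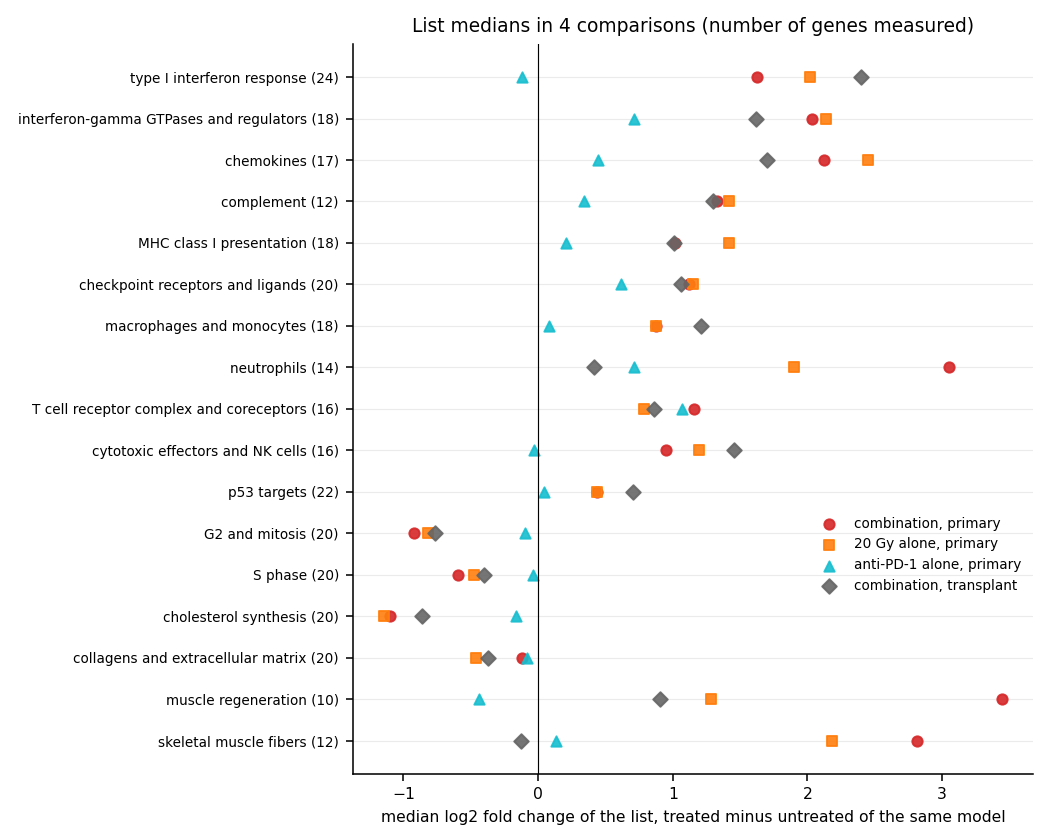
The x axis gives the median log2 fold change of each gene list (y axis, number measured) for the combination, 20 Gy alone and anti-PD-1 alone in primary tumors and the combination in transplant tumors, each against the untreated tumors of its model. Combination and 20 Gy alone lie side by side for interferon lists (1.63 and 2.02 for type I), and the neutrophil median is 3.05 with the combination.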

How the data were processed

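RNA was made from whole tumors stored in RNAlater, and stranded mRNA libraries were sequenced in 50 samples, 16 of which form the 2 groups compared. The deposited values are raw counts per gene, made by the authors with Trimmomatic 0.36 for trimming, STAR for alignment to mm10 and HTSeq for counting on GENCODE genes, as the submitters' processing notes and the methods give it. The strand setting of the counting is not given in the sources used here, so overlapping or antisense genes and near-identical copies may share reads. Of 37469 identifiers, 37408 were matched to a symbol in the GENCODE mouse annotation on GRCm38, and coordinates are from that annotation.

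Samples were grouped by their labels. Genes were kept by edgeR's filterByExpr over groups (19327 genes), counts were scaled by TMM, and the 48 tumor libraries were fitted with 1 mean per group (8 groups, 40 residual degrees of freedom) by edgeR 4.0.16 robust quasi-likelihood in R 4.3.3, with Benjamini-Hochberg adjustment over all tested genes and a threshold of 0.05. Levels are CPM on TMM-scaled library sizes, and list levels are means of log2 CPM with a prior count of 2. Contrasts were combination minus untreated, combination minus radiation alone, non-additivity, and primary minus transplant. Distances and the variance share were tested by exact permutation of the labels of the 16 libraries (12870 assignments). Replicates were separate tumors, numbered in accession order, and no pair of libraries of a group agreed within sampling noise.

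Total counts ranged from 34742377 to 51436481, so that precision for most genes was set by the spread between tumors. The comparison, its 38 gene lists and the naming rule were chosen with earlier results of these data known. Named genes were list members, the 12 genes with the largest rise and the 12 with the largest fall among called genes averaging at least 2 on the log2 CPM scale, and the 10 with the smallest p in each direction. Promoter windows were RefSeq sequences of GRCm38.p6. A few genes that met the naming rule are not reported here. The code was tested on simulated counts. Alternatives were other scalings and filters, fits to fewer libraries, a muscle covariate, limma 3.58.1 voom, DESeq2 1.42.0 and leaving out each library. The parental tumor and the cell line it gave rise to were not used in the fit.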

Additional observations from a re-analysis of the deposited data

Results flagged for a closer look

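A library was listed here where its gap to the nearest other library of its group was over 0.53 of the group's range, among the lists and named genes. Of 340 groups of 8 values 25 met this, and chance gives about 1 in 20.

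Combination replicate 5 accounted for most of them. It was the highest combination tumor for cholesterol synthesis (list mean 5.155 log2 CPM, next 4.295), Hmgcs1 (6.059), Srebf2 (7.553) and Mki67 (7.35). It was the lowest for the nucleic acid sensing list (4.979, next 6.103), the chemokine list (4.933) and the cell death list (4.696). It was also the lowest for Gbp3 (5.87), Tgtp1 (0.6171), Tap1 (5.742), Tapbp (7.595), Gzmb (2.309) and Fcrls (-0.5291), all in log2 CPM. In each case its value lay on the side of the untreated tumors except for Fcrls, where it lay beyond the other treated tumors. Counts without this library stand beside the list results.

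Combination replicate 4 was the highest for the Schwann cell list (3.218) and Zmat3 (6.15) and the lowest for Smo (5.331). Combination replicate 8 was the lowest for Mdm2 (5.717). Untreated replicate 4 was the highest of its group for Ifnb1 (-0.6869), Tap1 (7.807) and Ly6c2 (6.74) and the lowest for the smooth muscle list (2.537). Single values also stood apart in untreated replicate 2 for Bbc3 (4.299, highest), replicate 5 for Agbl2 (4.336, highest), and replicate 7 for Rrm1 (6.891, lowest) and Csf2rb (6.087, highest).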

How the results depend on the processing

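No paired analysis was possible because the labels give no shared replicate number. Combination against untreated tumors gave 3635 calls over 48 libraries. Separate fits, whose overlap with these calls was not counted, gave other totals. The 16 compared libraries gave 1498 (1095 higher, 403 lower) and the 32 primary libraries gave 876 lower. The 32 with a sex term, added after seeing the data, gave 2343 (822 lower). These fits differ from the main one in degrees of freedom and in the tumors that set the estimate of spread. Why the totals differ was not tested. Leaving out 1 library gave 2537 to 4402 calls, 1676 to 2741 higher and 861 to 1661 lower, with the lowest counts without combination replicate 4 and the highest total without replicate 1. For anti-PD-1 at 20 Gy, with 0 calls, the muscle covariate and voom with quality weights each called 1 (Kif21a, higher), DESeq2 called 45 (36 higher, 9 lower) and leaving out 1 library gave 0 to 20, the 20 being without combination replicate 1 and all higher. For non-additivity DESeq2 called 9 (3 higher, 6 lower) and leaving out 1 library gave 0 to 1, lower. For tumor model voom with quality weights called 6 (5 higher, 1 lower) and DESeq2 4 (2 and 2). The variance share was 14.86% over all tested genes and 8.943% to 14.87% on leaving out 1 library, and the spread difference was 8.639 to 22.99.

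List medians that turned negative were dendritic cells (-0.050 with the sex term, -0.30 muscle covariate, -0.35 voom, -0.19 with quality weights; -0.17 to 0.39 on leaving out 1 library), smooth muscle (-0.069, -0.56, -0.38 and -0.37; -0.55 to 0.42) and Schwann cells (-0.0020 with the sex term, -0.43 muscle covariate, -0.25 quality weights; -0.55 to 1.04). Of the named genes, 16 lost their call in the fit to the compared groups only, 13 with limma voom and 7 without combination replicate 4, and DESeq2 added 7. Nqo1 went to -0.13 with the parental tumor as a 9th untreated tumor, the 1 named gene that turned over. The causes were not tested. A sex term could not be fitted over all 48 tumors, since transplant libraries hold Xist and Y-linked RNA together.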

Other observations

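Further genes without overlap between the 8 combination and 8 untreated tumors, among the 67 higher (0.347%) and 41 lower (0.212%), are described here and were picked after their values were seen, so they stand for no pathway. Birc3, an inhibitor of apoptosis and ubiquitin ligase, ranged from 33.999 to 44.4 CPM in untreated and from 52.0 to 92.8 CPM in combination tumors (log2 fold change 0.82 ± 0.14). The NF-κB subunit gene Relb rose by 0.56 ± 0.12, the nuclear cofactor Bcl3 by 1.14 ± 0.18 and the A20-binding inhibitor Tnip2 by 0.62 ± 0.12. Zc3h12a, an RNase that degrades inflammatory mRNAs, rose by 1.11 ± 0.16, Nod1 by 1.26 ± 0.21, Irak2 by 0.69 ± 0.14 and Cebpb by 1.14 ± 0.22. The myeloid receptor genes Csf2rb and Clec7a rose by 1.78 ± 0.27 and 2.67 ± 0.47. In the other direction Cd34, found on endothelial and stromal progenitor cells, ranged from 389 to 1181 CPM in untreated and from 174 to 307 CPM in combination tumors (-1.44 ± 0.23). Smo, the hedgehog signal transducer, fell by 0.77 ± 0.16.

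A small number of genes rose with the combination while their value for radiation alone was near 0, and these too were picked after their values were seen. The orphan nuclear receptor Nr4a1 had a log2 difference from untreated of 1.81 ± 0.45 with the combination and 0.11 with radiation alone. The kinesin gene Kif21a had 1.29 ± 0.27 and -0.03, and the aryl hydrocarbon receptor gene Ahr had 1.37 ± 0.32 and -0.03. The direct difference between combination and radiation alone did not pass in edgeR for these genes, at 1.70 ± 0.45 for Nr4a1 (adjusted p = 0.194), 1.32 ± 0.27 for Kif21a (adjusted p = 0.131) and 1.40 ± 0.32 for Ahr (adjusted p = 0.16). All 3 passed with DESeq2.

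Nqo1, a quinone reductase induced by oxidative stress, was high in only some combination tumors. Replicates 2 and 5 held 137.5 and 95.56 CPM and replicate 4 held 20.4 CPM, whereas the other 5 held 3.56 to 13.6 CPM, against 3.86 to 18.02 CPM in untreated tumors. Its log2 difference from untreated was 1.93 ± 0.50 with the combination (adjusted p = 0.00524), 1.23 without replicate 2, and 0.98 in limma voom, where it did not pass (adjusted p = 0.207). The value for radiation alone was -0.40. The direct difference of 2.33 ± 0.50 between combination and radiation alone did not pass in edgeR (adjusted p = 0.142) and passed with DESeq2.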
